A study of Mus musculus with 6 samples.

Results

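Heat shock chaperones of the cytosol and mitochondria were followed in mouse tongue as a list of 43 genes. The genes were chosen by name from the HSP90, HSP110, HSP70, HSP40 and small heat shock protein families, the CCT chaperonin, their main co-chaperones and the heat shock transcription factors, and chaperones of the endoplasmic reticulum were left out. Of these, 41 had at least 1 probe that could be matched to the gene, with 59 probes in all, and Hspa1b and Dnajb5 were not analysed here. All 59 probes lay well above background on all 6 arrays and were tested, so the filter on dim probes removed none of them. The adjusted p-values of the members did depend on that filter, and values without it are given below. The members are set against the 26256 genes and unnamed probes tested in total. The list was chosen with earlier results of these data known, so this contrast is not independent of the data.

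RNA came from tongue of 6 samples of mice on the C57Bl6 background, hybridised singly to single-colour Agilent mouse arrays. All carried the genotype called iDek in the labels, in which doxycycline (DOX), an antibiotic used as a chemical switch for transgenes, turns on Dek, a chromatin protein; the labels call the induction ubiquitous and squamous cell-specific and do not name the promoter. The 3 no DOX samples were untreated and the 3 DOX samples came from mice kept on DOX for 2 weeks. The labels give neither age nor sex, and they speak of 3 treated mice without saying that the untreated samples came from separate animals, so p-values measure the spread between these samples. Every sample had the transgene and no DOX-treated mice without it were analysed here, so DOX and Dek induction cannot be told apart. A carcinogen appears in the title of the series but in none of the sample labels.

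Chaperones bind unfolded segments of other proteins and help them fold, or keep them from clumping. HSP70 proteins work in cycles of ATP binding that HSP40 (J-domain) proteins start and HSP110 proteins help to reset, and they pass some clients on to HSP90 through linking co-chaperones. When unfolded proteins accumulate, heat shock factor 1 (HSF1) assembles into trimers and switches on many of these genes through heat shock elements, which are runs of the unit GAA in alternating orientation. In muscle, which makes up much of the tongue, several small heat shock proteins are made constitutively and sit on the contractile filaments.

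Elements of this kind are shown for members with 3 or more units in a row and for Hspa1a and Dnaja1. Of the 12 measured members with 2 units only, Hspa1a and Dnaja1 had the largest log2 differences with DOX. The elements of the others are not printed. All elements were located by sequence alone, and binding of HSF1 to them was not measured. They were searched on both strands in promoter windows from 250 bases before to 50 bases after each start in RefSeq (GRCm38.p6), as GAANNTTCNNGAA or TTCNNGAANNTTC for an element of 3 units, and as GAANNTTC or TTCNNGAA for 2 units, which every 3-unit element contains. In the lines that follow, each 30-base stretch is written 5′ to 3′ on the strand of its gene, with the element in capitals.

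Hsph1: tgctgcagaTTCTGGAAAGTTCtcctcagt
Chordc1: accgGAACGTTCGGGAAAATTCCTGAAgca
Hspe1: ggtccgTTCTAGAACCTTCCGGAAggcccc
Dnajb6: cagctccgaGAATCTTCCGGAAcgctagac
Hspa1a: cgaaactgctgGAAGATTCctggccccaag
Dnaja1: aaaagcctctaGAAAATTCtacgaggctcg

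The stretch of Hsph1 lies at chr5:149636280-149636309 on the minus strand, with its element in the first transcribed bases. That of Chordc1, at chr9:18292259-18292288 on the plus strand, spans the start and runs to 5 units. The stretch of Hspe1, at chr1:55088053-55088082 on the plus strand, holds 4 units and is shared with Hspd1, which is transcribed the other way from the same window. The Dnajb6 stretch lies at chr5:29735843-29735872 and that of Dnaja1 at chr4:40722333-40722362, both on the plus strand. The Hspa1a stretch, of 2 units, lies at chr17:34972242-34972271 on the minus strand. The same 30 letters stand before the neighbouring gene Hspa1b, at chr17:34959324-34959353.

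Between 56.0% and 58.3% of the 55681 probes of each array lay well above background and no spot was saturated; the number of arrays limits the precision. All arrays shared 1 slide and 1 scan. Dek itself, read by 1 probe, gave 2.30, 2.10 and 2.20 without DOX and 2.41, 2.41 and 2.27 with DOX in normalised log2 signal, which is log2 of the array signal minus the 75th percentile of that array. Its groups overlapped, at a log2 difference of 0.17 ± 0.11 (SE, n = 3 and 3; limma, adjusted p = 0.456). Which part of the transcript this probe reads, and which the transgene carries, is not stated in the labels, so the probe is no check on them. Skeletal muscle markers (16 of 16 tested) and keratinocyte markers (14 of 14), which define the main tissues of the tongue, were well above background on every array; 0 of either list passed the test (limma), and 0 and 1 had an unadjusted p under 0.05. The mean of each marker list overlapped between groups for muscle, keratinocytes, fibroblasts, endothelium, leukocytes, adipocytes and Schwann cells. Single markers within these lists still differed in mean. Fibroblast markers were lower with DOX for 5 of 6, with a median of -0.24 and the lowest at -1.19. An unadjusted p under 0.05 (limma) was reached by 2 of the 6, beside 18.6% of everything tested. Keratinocyte markers ran from -0.87 to 0.94, and 2 of the 14 were lower on every DOX array, beside 12.6% of everything tested. The mean of the salivary acinar markers did not overlap, at 2.59, 1.21 and 2.88 without DOX and 4.36, 4.87 and 4.35 with DOX. Of the 6 tested, 4 were higher on every DOX array than on every no DOX array, beside 12.7% of everything tested. Bpifa2 had the largest log2 difference, 6.51. The other 2 were lower in mean with DOX, the lowest at -0.98, and their groups overlapped. By limma 0 passed and 4 had an unadjusted p under 0.05 (18.6% of everything tested did). Only 5 of the 6 were well above background on every array. The part of any of these markers in the chaperone results was not tested.

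The heat shock chaperones were higher with DOX nearly throughout, mostly by small amounts. The mean was higher with DOX for 39 of the 41 members, and the median log2 difference was 0.39 (quartiles 0.24 and 0.54), beside a median of -0.01 (quartiles -0.19 and 0.17) over all genes and unnamed probes tested. Hsph1 and Hsp90aa1 rose past the threshold of 0.05 and 0 members fell (limma, Benjamini-Hochberg over all probes). The 2 that rose are 4.88% of the members, beside 0.278% of everything tested that rose and 0.126% that fell. Before adjustment 19 members had a p under 0.05, a level that 18.6% of everything tested reached in either direction. For 24 members (58.5%) every DOX array lay above every no DOX array, against 12.7% of everything tested. No member had every DOX array below every no DOX array, which 12.6% of everything tested did. In RNA from whole tissue, more cells of a type and more RNA per cell cannot be told apart.

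**Figure D1:**
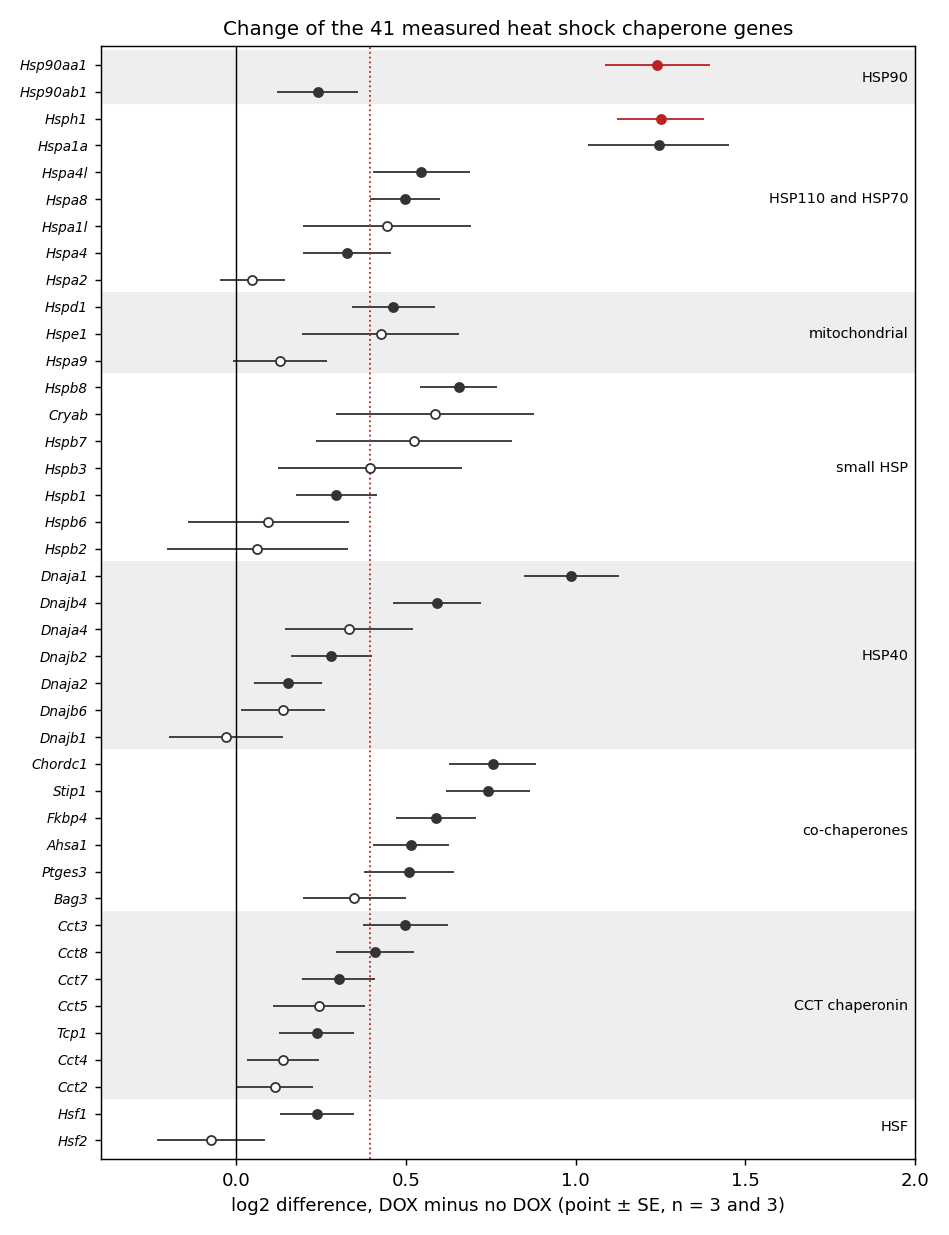
Log2 difference between the means of 3 DOX and 3 no DOX arrays (point) with its standard error (line) for the 41 measured members, in bands by role. Red marks Hsph1 and Hsp90aa1, which passed the test; filled points mark the 24 members whose DOX arrays all lay above all no DOX arrays; the dotted line is the members' median of 0.39. Nearly all points lie to the right of 0, and only Dnajb1 and Hsf2 lie to its left.

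Of the HSP90 genes, Hsp90aa1 rose and Hsp90ab1 did not pass the test. Hsp90aa1, the stress-inducible cytosolic HSP90, gave 3.80, 3.82 and 4.01 without DOX and 5.41, 4.93 and 5.02 with DOX (probe A_55_P2057946). The groups were separated by 0.91 log2 units, and DOX replicate 1 was the highest array. The rise was 2.36-fold (95% interval 1.83 to 3.06), a log2 difference of 1.24 ± 0.15 (SE, n = 3 and 3; limma, adjusted p = 0.0406). Hsp90ab1, the constitutive form, gave 7.55, 7.75 and 7.75 without DOX and 8.04, 7.95 and 7.78 with DOX. Its groups were apart by only 0.03, and its difference of 0.24 ± 0.12 did not pass (limma, adjusted p = 0.337).

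Among the HSP110 and HSP70 genes, all 7 measured had a higher mean with DOX. The groups were apart for 5, beside 12.7% of everything tested that was apart and higher. By limma 1 passed, beside 0.278% of everything tested that rose. Hsph1 encodes an HSP110 protein that exchanges nucleotide on HSP70, and it carries the 3-unit element shown above. It gave 2.48, 2.63 and 2.63 without DOX and 4.04, 3.68 and 3.78 with DOX (probe A_55_P2176963). The arrays of each group kept close together and 1.04 log2 units lay between the groups. Hsph1 rose 2.38-fold (1.92 to 2.94), by 1.25 ± 0.13 on the log2 scale (limma, adjusted p = 0.0241), the smallest adjusted p of the 41 members. Its other probe also gave 1.25 (adjusted p = 0.0406).

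Hspa1a, the strongly heat-inducible HSP70, showed a difference of like size with more scatter. Its signal was 0.89, 1.24 and 1.19 without DOX and 2.64, 1.93 and 2.49 with DOX. The groups were 0.69 apart, with DOX replicate 2 well below the other DOX arrays. The difference of 1.24 ± 0.21, or 2.37-fold (1.68 to 3.35), did not pass (limma, adjusted p = 0.0737). Hspa1b, the neighbouring copy, encodes almost the same transcript, and the 250 bases before the starts of the pair are identical at 247 positions (98.8%), so signal on the Hspa1a probe may come from either gene. The 250 bases before Hspa1a, at chr17:34972157-34972406 on the minus strand, are printed here with the 2-unit element in capitals, which begins 104 bases before the start.

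Hspa1a: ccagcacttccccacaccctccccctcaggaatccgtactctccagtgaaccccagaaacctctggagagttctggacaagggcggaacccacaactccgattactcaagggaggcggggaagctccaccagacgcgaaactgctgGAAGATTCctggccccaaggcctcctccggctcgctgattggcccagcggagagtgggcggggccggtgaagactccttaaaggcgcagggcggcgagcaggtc

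Hspa8, the constitutive HSP70 that handles most folding in unstressed cells, gave 7.82, 7.92 and 7.94 without DOX and 8.48, 8.40 and 8.30 with DOX. All DOX arrays were higher, by at least 0.36, and the log2 difference was 0.50 ± 0.10 (limma, adjusted p = 0.0957). Its 2 dimmer probes gave larger differences, 0.83 and 0.87, and none of its probes passed. Hspa4l, an HSP110 relative, gave 1.65, 1.72 and 1.82 against 2.53, 2.09 and 2.20. Its groups were also apart, at 0.54 ± 0.14 (adjusted p = 0.135). Hspa4, a further HSP110 protein, differed by 0.33 ± 0.13 and its 3 probes by 0.30 to 0.45, with the groups apart. Hspa1l and Hspa2, HSP70 genes best known from the testis, differed by 0.44 ± 0.25 and 0.05 ± 0.10, and their groups overlapped.

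**Figure D2:**
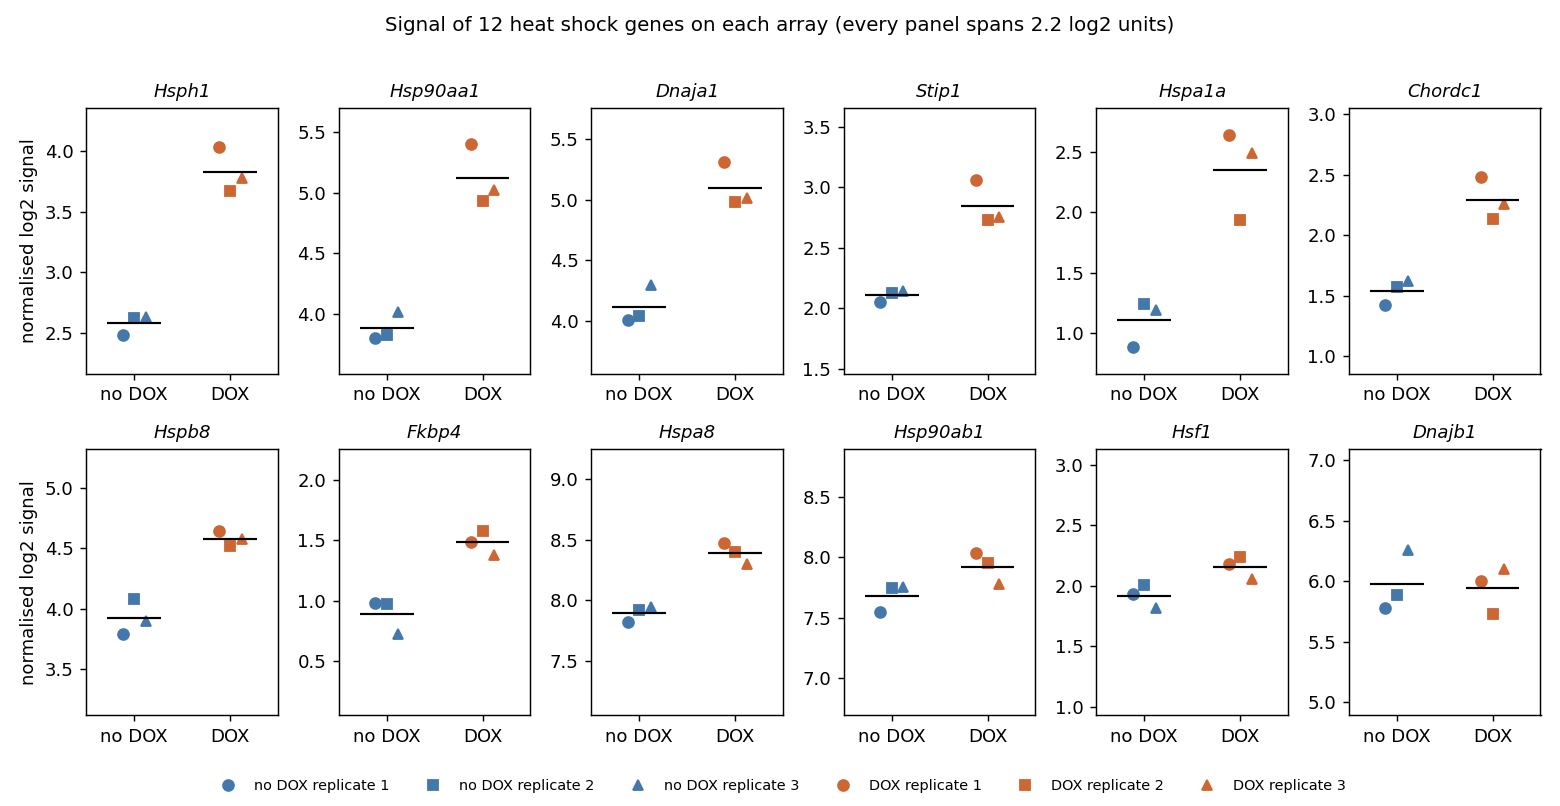
Normalised log2 signal of 12 members on each of the 6 arrays; marker shape is the replicate number, which does not pair the arrays, and the black line is the group mean. Every panel spans 2.2 log2 units. Hsph1, Hsp90aa1 and Dnaja1 show wide gaps between the groups, Hsp90ab1 and Hsf1 narrow ones, and Dnajb1 overlaps.

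Of the co-chaperones that join or regulate HSP90 and HSP70, 6 of 6 had a higher mean with DOX. The differences ran from 0.35 to 0.76 with a median of 0.55. The groups were apart for 5 of 6, beside 12.7% of everything tested that was apart and higher. None passed the test (limma), and 5 had an unadjusted p under 0.05 (18.6% of everything tested did). Stip1, which bridges HSP70 and HSP90, gave 2.05, 2.12 and 2.14 without DOX and 3.06, 2.73 and 2.75 with DOX. Within the no DOX group its arrays agreed to 0.05 (SD, n = 3), and the groups were 0.59 apart. The log2 difference was 0.74 ± 0.12 (limma, adjusted p = 0.0732).

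Chordc1, an HSP90-binding protein whose start carries the 5-unit element printed above, gave 1.42, 1.57 and 1.62 without DOX and 2.48, 2.14 and 2.26 with DOX. The groups were 0.52 apart, and the difference was 0.76 ± 0.13 (adjusted p = 0.0765). Fkbp4, an immunophilin of steroid receptor complexes with HSP90, gave 0.98, 0.98 and 0.73 against 1.49, 1.58 and 1.38. All DOX arrays were higher by at least 0.40, for a difference of 0.59 ± 0.12 (adjusted p = 0.0920). Ahsa1, which stimulates the ATPase of HSP90, gave 5.07, 5.19 and 5.08 against 5.74, 5.66 and 5.48. Its groups were 0.29 apart and its difference was 0.51 ± 0.11 (adjusted p = 0.101).

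Ptges3 (p23), which stabilises the closed form of HSP90, differed by 0.51 ± 0.13, with its 4 probes between 0.46 and 0.53 and the groups apart. Bag3, an HSP70 exchange factor that works with Hspb8 in clearing damaged muscle proteins, differed by 0.35 ± 0.15, and its groups overlapped.

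The HSP40 genes had differences from -0.03 to 0.99 (median 0.28). The groups were apart for 4 of 7, beside 12.7% of everything tested that was apart and higher. None passed (limma), and 2 of 7 had an unadjusted p under 0.05, beside 18.6% of everything tested. Dnaja1, a general HSP70 partner, gave 4.01, 4.04 and 4.30 without DOX and 5.31, 4.98 and 5.01 with DOX. The groups were 0.68 apart, and the difference of 0.99 ± 0.14, or 1.98-fold (1.57 to 2.50), did not pass (limma, adjusted p = 0.0553). Its other probe gave 0.84. Dnajb4 gave -0.74, -0.64 and -0.77 without DOX and -0.11, 0.07 and -0.33 with DOX. Its groups were 0.31 apart, at 0.59 ± 0.13 (adjusted p = 0.103).

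Dnajb2, a J-domain protein of the ubiquitin pathway, gave 2.43, 2.73 and 2.49 against 2.90, 2.84 and 2.75. The groups were apart by 0.02, and the difference was 0.28 ± 0.12 (adjusted p = 0.275). Dnaja4 gave 4.02, 4.41 and 3.97 against 4.24, 4.77 and 4.38 and overlapped between the groups (0.33 ± 0.19, adjusted p = 0.393). Dnaja2 was the member whose probes differed in sign, with 0.15 ± 0.10 on the brighter probe and -0.03 ± 0.13 on the other. The 4 probes of Dnajb6 gave 0.05 to 0.20, with overlap on the brightest.

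Dnajb1, in textbooks the main heat-induced HSP40, showed no such separation, and its arrays are given because of that value. It gave 5.78, 5.89 and 6.26 without DOX and 6.0, 5.73 and 6.10 with DOX. The groups were interleaved, and the difference was -0.03 ± 0.17, with a 95% interval from -0.43 to 0.37 (limma, adjusted p = 0.950). That interval lies below the differences measured for Hsph1, Hspa1a, Hsp90aa1 and Dnaja1.

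The mitochondrial members had a median difference of 0.42, and 0 of 3 passed (limma). Before adjustment 1 had a p under 0.05, beside 18.6% of everything tested. Without no DOX replicate 1 the median of the mitochondrial members was 0.24. Hspd1 (HSP60) and Hspe1 (HSP10) form the folding chamber of the matrix, and their genes lie head to head around the 4-unit element shown above. Hspd1 gave 4.97, 5.24 and 5.04 without DOX and 5.66, 5.55 and 5.43 with DOX. Its groups were 0.19 apart, at 0.46 ± 0.12 (limma, adjusted p = 0.136). Hspe1 gave 4.81, 5.40 and 5.30 against 5.82, 5.77 and 5.19. DOX replicate 3 lay within its no DOX range, so the groups overlapped (0.42 ± 0.23, adjusted p = 0.374), and its 3 probes gave 0.42 to 0.46. Hspa9, the matrix HSP70, gave 4.31, 4.48 and 4.22 against 4.46, 4.67 and 4.28, with overlap and a difference of 0.13 ± 0.14 (adjusted p = 0.682). The window shared by Hspd1 and Hspe1 is printed as the 250 bases before Hspe1, at chr1:55087898-55088147 on the plus strand, with the element in capitals from 89 bases before the start.

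Hspe1: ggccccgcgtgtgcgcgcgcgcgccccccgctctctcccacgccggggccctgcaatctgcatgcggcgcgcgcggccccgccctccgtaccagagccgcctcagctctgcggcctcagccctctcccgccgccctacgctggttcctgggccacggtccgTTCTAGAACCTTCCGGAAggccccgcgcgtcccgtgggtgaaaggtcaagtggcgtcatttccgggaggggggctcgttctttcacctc

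The CCT chaperonin, the cytosolic folding chamber for actin and tubulin, showed small differences of 1 sign. All 7 subunits measured were higher in mean with DOX, from 0.11 to 0.50 with a median of 0.24. The groups were apart for 4 of 7, beside 12.7% of everything tested that was apart and higher. By limma 0 passed and 3 had an unadjusted p under 0.05 (18.6% of everything tested did). With slide row in the model the median was 0.38, and without DOX replicate 1 it was 0.18. Cct3 gave 2.42, 2.46 and 2.65 without DOX and 3.18, 2.92 and 2.93 with DOX. Its groups were 0.27 apart (0.50 ± 0.12, limma, adjusted p = 0.127). Cct8 gave 3.37, 3.43 and 3.59 against 4.0, 3.82 and 3.80. It too was apart, at 0.41 ± 0.11 (adjusted p = 0.150).

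Cct7 gave 4.50, 4.53 and 4.70 against 4.95, 4.81 and 4.86, and its groups were apart by 0.11 (0.30 ± 0.11, adjusted p = 0.213). Tcp1, the first CCT subunit, gave 3.55, 3.59 and 3.63 against 3.96, 3.82 and 3.69 and was apart by 0.06 (0.24 ± 0.11, adjusted p = 0.309). Cct5, Cct4 and Cct2 differed by 0.24, 0.14 and 0.11, and their groups overlapped.

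The small heat shock proteins, which hold unfolding proteins without ATP, were higher in mean for 7 of 7, with a median of 0.39. By limma 0 passed, and 2 of 7 had an unadjusted p under 0.05, beside 18.6% of everything tested. The median was 0.62 without DOX replicate 3 and 0.30 without DOX replicate 2, where 5 of 7 were higher. With slide row in the model it was 0.28, and 6 of 7 were higher. Of the 7 genes only Hspb8 and Hspb1 had groups apart, beside 12.7% of everything tested that was apart and higher. Hspb8, the partner of Bag3, gave 3.80, 4.08 and 3.90 without DOX and 4.64, 4.52 and 4.58 with DOX. The DOX arrays agreed to 0.06 (SD, n = 3) and lay at least 0.44 above the others, for a difference of 0.65 ± 0.11 (limma, adjusted p = 0.0777). Hspb1, the broadly expressed member, gave 8.46, 8.67 and 8.79 against 8.92, 8.90 and 8.98. Its groups were 0.11 apart, at 0.29 ± 0.12 (adjusted p = 0.254).

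Cryab and the muscle members Hspb2, Hspb3, Hspb6 and Hspb7 varied widely between arrays of a group. Cryab, a lens and muscle chaperone, gave 6.83, 7.51 and 6.51 without DOX and 7.23, 7.90 and 7.47 with DOX. Replicate 2 of each group was its highest array and the groups overlapped (0.58 ± 0.29, adjusted p = 0.336). Hspb7 gave 1.08, 1.77 and 1.09 against 1.87, 2.28 and 1.35, again with overlap (0.52 ± 0.29, adjusted p = 0.381). Hspb3, Hspb6 and Hspb2 differed by 0.39 ± 0.27, 0.09 ± 0.24 and 0.06 ± 0.27.

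The mean of the 16 skeletal muscle markers had a like array pattern, at 6.83, 7.20 and 6.45 without DOX and 6.90, 7.13 and 6.70 with DOX. The groups overlapped for all 16 markers, and Mylpf had the largest difference, 0.34. Hspb3 and Hspb6 followed the order of that mean in both groups. When the muscle mean of each array was subtracted, an operation chosen after the values were seen and given as a description, Cryab stood at -0.00, 0.31 and 0.06 without DOX and 0.33, 0.78 and 0.77 with DOX. The Cryab groups no longer overlapped, at a difference of 0.50. Hspb7 was then apart as well, at 0.44, while Hspb8 overlapped, at 0.57. Hspb3 (0.31), Hspb6 (0.01), Hspb2 (-0.02) and Hspb1 (0.21) overlapped, as did the HSP40 gene Dnaja4 (0.25). Hspb8 and Hspb1 had been apart before the subtraction, so some genes came apart and others came to overlap. The share over everything tested after this subtraction is not given here. The part of muscle content in these values was not tested.

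**Figure D3:**
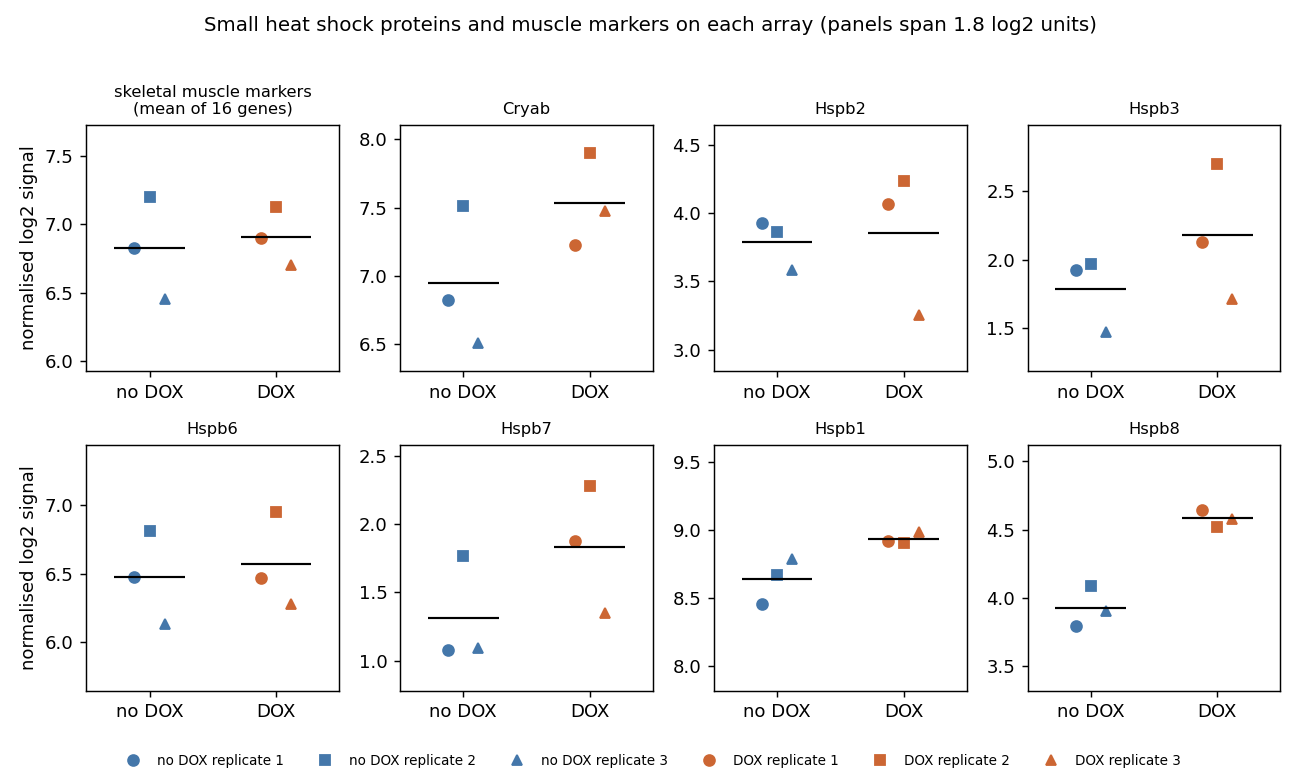
Normalised log2 signal on each array of the mean of 16 skeletal muscle markers and of the 7 small heat shock proteins; marker shape is the replicate number and the black line the group mean, with panels of 1.8 log2 units. In each group the muscle mean is highest on replicate 2 and lowest on replicate 3, an order that Hspb3 and Hspb6 share and that Hspb1 and Hspb8 do not.

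Neither of the transcription factor genes passed the test, or had an unadjusted p under 0.05. Hsf1, the main activator of the heat shock response and a protein controlled mostly after translation, gave 1.93, 2.00 and 1.82 without DOX and 2.18, 2.24 and 2.05 with DOX. Its groups were apart by 0.05, and the difference of 0.24 ± 0.11 did not pass (limma, adjusted p = 0.298). Hsf2, a related factor, gave 0.27, 0.31 and 0.05 against 0.06, 0.41 and -0.08. Its arrays were interleaved (-0.07 ± 0.16, adjusted p = 0.850).

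Related members were compared directly by taking their difference within each array, which cancels only a factor that scales both probes equally. A difference in cell types between samples need not cancel. Of 9 pairs computed, 7 separated the groups: the log2 difference with DOX was larger for Hsp90aa1 than for Hsp90ab1 by 1.00, for Hsph1 than for Hspa4 by 0.92, for Dnaja1 than for Dnaja2 by 0.83, for Hspa1a than for Hspa8 by 0.75, for Hsf1 than for Hsf2 by 0.31 and for Hspa4l than for Hspa4 by 0.22. The difference of Dnajb1 was smaller than that of Dnajb4 (-0.62). In an exact two-sided permutation test, with 20 ways to assign the arrays, each of the 7 gave p = 0.1, the smallest value the design allows, and 0.129 after adjustment over the 9 pairs, so none could pass 0.05. Some separations depended on the probe, as a comparison chosen after seeing the data showed. With either other Hspa8 probe the groups overlapped for Hspa1a against Hspa8, at 0.41 and 0.37, and with either other Hspa4 probe they overlapped for Hspa4l against Hspa4, at 0.24 and 0.09. All 6 probe combinations of Hsph1 and Hspa4 (0.80 to 0.95) and all 4 of Dnaja1 and Dnaja2 (0.69 to 1.02) kept the groups apart. For the other 2 pairs the within-array difference overlapped between groups. These were Hspb1 and Cryab (-0.29, exact p = 0.5, adjusted 0.562) and Hspd1 and Hspe1 (0.04, exact p = 0.7, adjusted 0.7).

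The arrays of the DOX group were not equal. Taken as deviations from the no DOX mean, the median over the 41 members was -0.09, 0.06 and 0.04 on the no DOX arrays and 0.49, 0.45 and 0.25 on the DOX arrays. DOX replicate 1 was the highest DOX array for 25 members, replicate 2 for 12 and replicate 3 for 4. Replicate 1 led for Hsph1, Hsp90aa1, Hspa1a, Dnaja1, Stip1 and Chordc1. Replicate 2 led for Cryab, Hspb7, Hspb3 and Dnaja4.

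**Figure D4:**
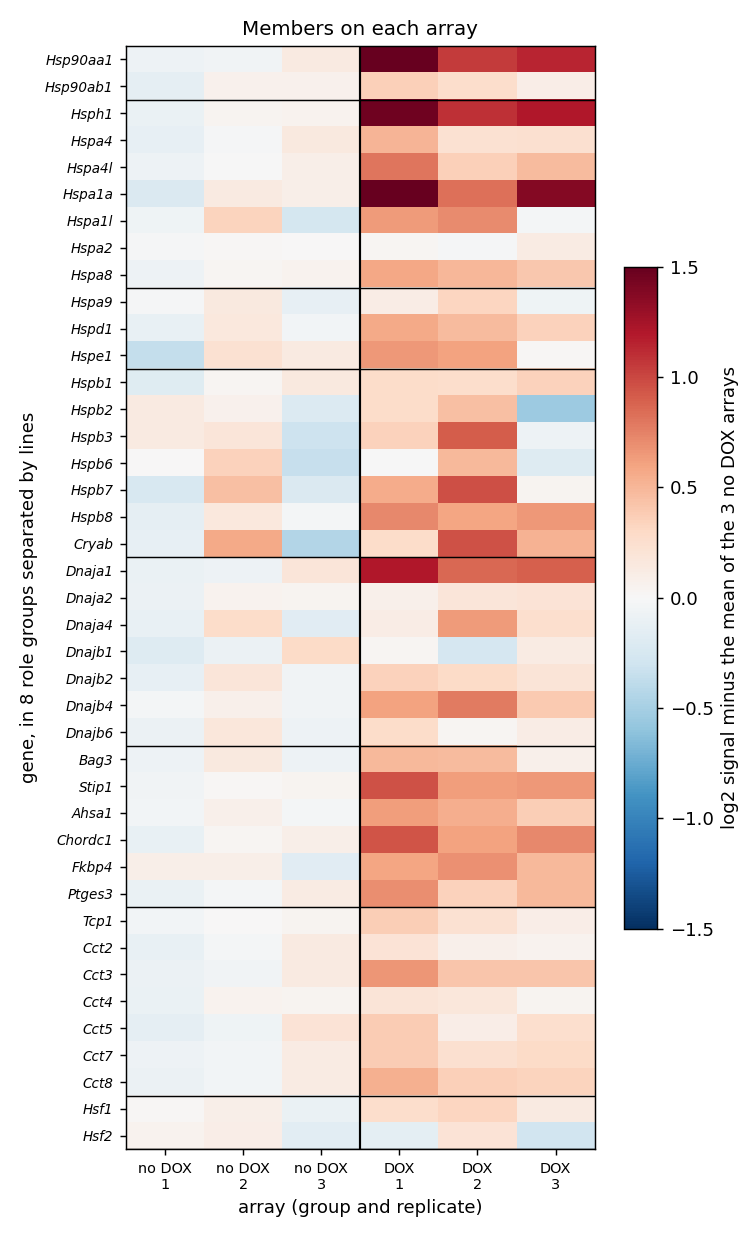
Each row is 1 of the 41 members, in 8 role groups separated by lines, and each column 1 array; colour is log2 signal minus the mean of the 3 no DOX arrays, red higher and blue lower, from -1.5 to 1.5. DOX replicate 1 shows the deepest red for Hsp90aa1, Hsph1 and Dnaja1, and DOX replicate 3 is the lowest DOX array for Hspb2, Hspb3, Hspb6 and Hspb7.

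DOX replicate 1 lay in the same slide row as the 3 no DOX arrays, and the other DOX arrays in the next row. With slide row in the model, which leaves DOX replicate 1 as the DOX array set against its own row, the log2 differences were 1.46 for Hsph1 and 1.53 for Hsp90aa1, and neither passed (limma, adjusted p = 0.0624 for each). Leaving out any 1 of the 6 arrays also left both genes short of the threshold, with log2 differences of 1.15 to 1.33 for Hsph1 (adjusted p 0.0504 to 0.115) and 1.096 to 1.33 for Hsp90aa1 (adjusted p 0.0701 to 0.164). Testing all probes, dim ones included, left them at an adjusted p of 0.0856 and 0.121.

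Other chaperone, cofactor and heat shock target genes, in lists that do not overlap the 43, were measured beside the members. Of 64 such genes 63 were tested. Among them 51 had a higher mean with DOX, 1 rose and 0 fell, and the median log2 difference was 0.13. Every DOX array lay above every no DOX array for 25 (39.7%) and below for 1. Of everything tested, 12.7% lay above in this way, 12.6% lay below and 0.278% rose past the threshold. The gene of these lists that rose was Fkbp5, an HSP90-bound immunophilin known as a glucocorticoid-induced gene. It gave 0.43, 0.14 and 0.00 without DOX and 1.28, 1.61 and 1.39 with DOX. The groups were well apart, at 1.23 ± 0.15 (limma, adjusted p = 0.0406).

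Among the 21 further HSP90 and HSP70 cofactors, 17 were higher in mean and the median was 0.13. Cacybp (0.81 ± 0.12, adjusted p = 0.0588) and Nudc (0.53 ± 0.11, adjusted p = 0.0976), which share a p23-like fold, followed Fkbp5 without passing. Of 14 other cytosolic HSP40 and HSP70 genes 10 were higher in mean, with a median of 0.09. By limma 0 passed and 3 had an unadjusted p under 0.05, beside 18.6% of everything tested. The smallest adjusted p of the 14 belonged to Dnajc9, a histone chaperone with a J domain (0.68 ± 0.09, adjusted p = 0.0522). Dnajc2 (0.48) and Hspa14 (0.31), both of the ribosome, followed.

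Prefoldin and the remaining chaperonin subunits were higher in mean for 7 of 9, with a median of 0.12. By limma 0 passed and 1 had an unadjusted p under 0.05, beside 18.6% of everything tested. Of the CCT subunits outside the 43, Cct6a differed by 0.45 ± 0.12 (adjusted p = 0.140) and Cct6b by -0.04, with overlap. Pfdn6 differed by 0.28 and Pfdn4 by 0.22. Other mitochondrial folding and protease genes were higher for 10 of 11 (median 0.21). By limma 0 passed and 2 had an unadjusted p under 0.05, beside 18.6% of everything tested. Dnajc11 differed by 0.37, the protease subunit Clpp by 0.33 and the HSP70 exchange factor Grpel1 by 0.24.

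Non-chaperone targets of HSF1 and further HSF genes were higher for 7 of 8, with a median of 0.35. The groups were apart for 5, beside 12.7% of everything tested that was apart and higher. By limma 0 passed and 4 had an unadjusted p under 0.05, beside 18.6% of everything tested. Ier5, an HSF1 regulator, differed by 0.56 ± 0.17 (adjusted p = 0.161), and Zfand2a, a stress-induced proteasome adaptor, by 0.43. Of the RNA-binding proteins induced by cold, Cirbp was lower on every DOX array, at -0.50 ± 0.11 (adjusted p = 0.106). Rbm3 differed by 0.23 with overlap.

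Of the 43 members 35 had a promoter window; Hsp90aa1, Hsp90ab1, Hspa8, Hspa9, Hspb2, Cryab, Cct4 and Hsf1 did not enter this comparison. The 3-unit element stood in a window of 5 of them (14.3%), Hsph1, Chordc1, Hspd1, Hspe1 and Dnajb6, against 179 of 27025 genes with a window (0.662%). The 2-unit element stood in 18 members (51.4%) against 4587 of all genes (17.0%). Hspd1 and Hspe1 share their element, and Hspa1a and Hspa1b have the same letters there, so these are not independent counts. The log2 differences of the 5 members with 3 units ran from 0.14 (Dnajb6) to 1.25 (Hsph1), with a median of 0.46. The 12 measured members with 2 units only had a median of 0.37 (0.09 to 1.24), and the 16 with neither a median of 0.37 (-0.07 to 0.74). The sets overlapped throughout, and Stip1, at 0.74, was the highest of those with a window and neither form in it.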

How the data were processed

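Per the file headers and the submitters' processing notes, the deposited spot intensity values were written by Agilent Feature Extraction 11.5.1.1 on a linear scale; the processed signal used here has had background removed. The authors' value table holds this intensity times 1 factor per array (3.70 to 3.99), with column medians of 102.5, 94.2 and 92.7 (no DOX) and 90.01, 97.5 and 93.7 (DOX); how the factors were set is not given in the sources used. Flags for outlier and background spots were read from the same files.

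Spots of 1 probe were averaged as log2 processed signal, leaving out 146 to 195 outlier spots per array, and the 75th percentile of the non-control probes on that array was subtracted. Accessions were named through a RefSeq table (GRCm38.p6): 28331 probes matched 1 symbol, 27350 none. The 30934 probes well above background on all 3 arrays of a group entered 1 limma fit (version 3.58.1, R 4.3.3) with eBayes, two-sided, with Benjamini-Hochberg adjustment and a threshold of 0.05; the fit was checked on simulated arrays. The brightest probe stood for a gene. In the report ± after a log2 difference is its standard error.

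The members and lists were chosen with earlier results of these data known. Values on every array are given in each family for members past the threshold, up to 4 with the smallest p and the largest difference; Dnajb1 falls outside this rule and was named after its values were seen. Each other list gives up to 3 genes; 1 gene that the rule names is not reported here. Promoter sequences were credited to RefSeq and read by gene symbol. Alternatives covered background correction, scaling, the value table, filters, variance model, array weights, slide row, a replicate block, the probe rule and each array left out in turn. The normexp alternative used the median spot signal with an offset of 50, because the planned mean signal was not among the columns used.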

Additional observations from a re-analysis of the deposited data

How the results depend on the processing

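The median log2 difference of the members, 0.39, kept its sign and lay between 0.31 and 0.49 under every alternative run. The 106 genes and probes past the threshold became 272 with array weights, 246 with normexp, 192 with a trended robust variance, 32 with slide row as a block, 1 with no filter on dim probes and 0 with the replicate block. The 2 members past it became 6, 8, 7, 0, 0 and 0 under the same settings. Leaving out 1 array gave 3 to 51 genes and, each time, 0 members. The other settings gave 91 to 115 genes and 2 members. The members added were Hspa1a, Dnaja1, Stip1 and Chordc1 in the first 3 settings, Hspb8 with normexp and the trend, and Hspa8 with normexp. Without the filter Hsph1 had an adjusted p of 0.0856 and Hsp90aa1 of 0.121; with the replicate block they had 0.138 and 0.144. Replicate numbers did not pair the arrays: deviations of same-numbered arrays correlated at -0.11, -0.01 and 0.01 over 30921 probes. Dnajb1 turned positive with array weights (0.025), normexp (0.019) and slide row (0.030), and Hspb6 negative with array weights (-0.018) and slide row (-0.0050). Leaving out 1 array moved Dnajb1 from -0.13 to 0.11, Hspb6 from -0.10 to 0.27, Hspb2 from -0.13 to 0.36 and Hsf2 from -0.22 to 0.030. It moved the difference between Hspb1 and Cryab from -0.56 to 0.0049 and that between Hspd1 and Hspe1 from -0.10 to 0.16. The cause of these changes was not tested. More probes were tested without the filter, and fewer arrays entered the fits that left out 1 array. The probes of the members were all well above background on every array.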
